A study of Mus musculus with 768 samples.

Results

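Periaxin and the dystroglycan complex were examined in mouse Schwann cells, as 9 genes of 25700 in the count table, chosen by Ensembl identifier. They were Prx (periaxin), Drp2 (dystrophin-related protein 2), Dag1 (dystroglycan), Utrn (utrophin), Dmd (dystrophin), the sarcoglycan genes Sgce, Sgcb and Sgcd, and Dtna (alpha-dystrobrevin). The cells came from sciatic nerves at postnatal day 5. The pups carried P0Cre-/+, ReYFP Tg/+ and βAct-DsRed Tg/+, so that a Cre active in the Schwann cell lineage switches on eYFP, while DsRed is expressed broadly. Cells with eYFP were placed singly in the wells of 2 plates, 384 each, and their RNA was sequenced by Smart-Seq2, which covers whole transcripts and uses no molecular identifiers. Each plate held pooled cells of male and female pups and is 1 biological replicate, so n = 2 plates, and all groups share the genotype. The reporter marks cells in which Cre was ever active, so it does not by itself tell one Schwann cell state from another.

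Dystroglycan is a receptor for laminin in the basal lamina around each Schwann cell. Inside the cell it binds dystrophin family proteins, which tie it to the actin cytoskeleton, and in the membrane it sits with sarcoglycans. In myelinating Schwann cells it also forms a complex with Drp2 and periaxin at patches where the outer myelin surface is pressed against the plasma membrane. The cytoplasm-filled channels left between the patches are the Cajal bands. Loss of periaxin causes a demyelinating neuropathy in mice and people.

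Of 768 wells, 655 had at least 1500 detected genes and were not corner wells, 325 in plate 1 and 330 in plate 2. Kept wells held 219192586 reads in plate 1 (median 593534) and 202742928 in plate 2 (median 559286). Wells were grouped with genes that are not members. Cycling wells, 57 in all, had 5 reads or more of at least 3 of 10 cell cycle genes. Of the rest, 228 immature wells had under 10 CPM (counts per 1e+06 reads) of Ncmap, a gene of myelinating Schwann cells. The 149 intermediate wells had more Ncmap but under 30000 CPM of Pmp22, a compact myelin gene, and the 221 myelinating wells had at least that. All wells are from postnatal day 5, so the order of the states is set by marker levels and is not a measured time course. Markers outside the rule moved with the state names. The summed level of Ngfr, Ncam1, L1cam, Gfra3 and Scn7a was 726 and 746 CPM in immature sums and 3.94 and 4.88 CPM in myelinating sums. Mag, Mal, Pmp2, Cldn19 and Gjb1 together went from 2133 and 2144 CPM to 11311 and 11624 CPM. Of the lists for endothelial cells, immune cells, mural cells, skeletal muscle and neurons, 0 of 655 wells held 5 reads of 3 genes, a count that leaves room for a share of at most 0.458%. Pecam1, Cdh5, Ptprc and Rgs5 were at 0. Other markers of these lists were not: Pdgfrb went from 8.21 and 7.01 CPM in immature to 40.2 and 44.4 CPM in myelinating sums, Kdr had 16.5 and 17.9 CPM in myelinating sums, Cspg4 49.0 and 56.4 CPM in cycling sums, and Csf1r at most 14.1 CPM. Fibroblast markers were carried by collagen genes. Col1a1 and Col3a1 fell along the states, and 21 wells held 3 of the 5 markers, while Pdgfra, Dcn and Lum were each under 30 CPM in every sum. Their part in the results below was not tested.

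The reads of each state were summed within each plate, which gave 8 sums of 13925435 to 98479212 reads. Myelinating wells were deeper, with medians of 819462 and 719230 reads against 476354 and 418999 in immature wells. The genes that each held over 1% of the reads of a sum took 19% and 19.3% of the myelinating reads and 5.11% and 5.14% of the immature reads, so an unchanged gene loses CPM in the myelinating sums. Levels are therefore given as CPM and changes as log2 fold changes of edgeR's quasi-likelihood test after TMM scaling, with the Benjamini-Hochberg adjusted p over 13904 genes. All 9 members passed its filter on low counts, Drp2 only through the intermediate and myelinating sums.

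**Figure D1:**
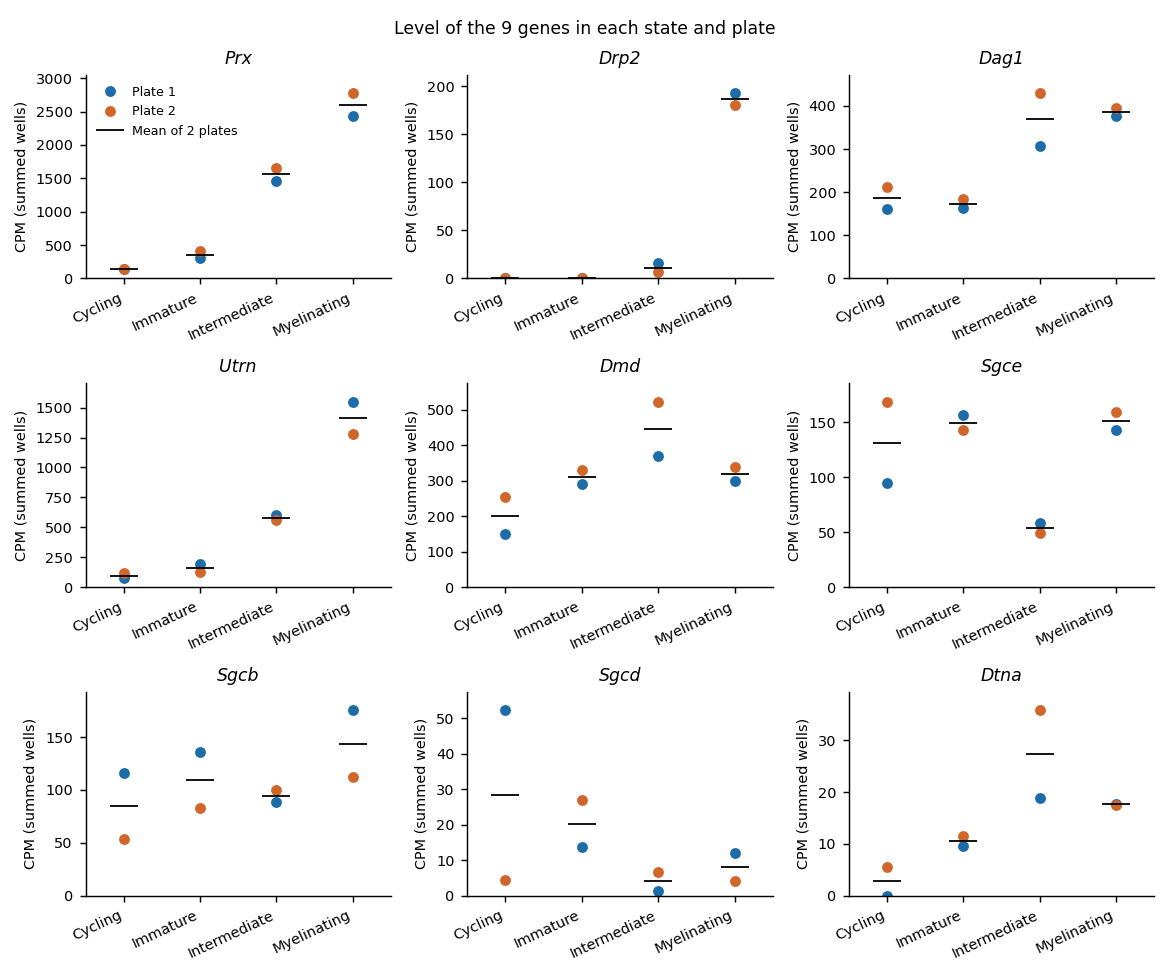
CPM of each gene (y axis, from 0, scaled per gene) in the cycling, immature, intermediate and myelinating sums (x axis). Coloured points are the 2 plates and bars their mean. Prx and Utrn rise in both steps from immature to myelinating, Drp2 is near 0 until the intermediate state, Dag1 rises at the first step, and Sgce has its lowest level in the intermediate state.

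Prx and Dag1 both rose from immature to intermediate cells (values below), and the sequence before their starts is shown. Utrn rose in the same step by more than Dag1, and its sequence is not shown. A shared control of Prx and Dag1 was not tested. Promoter entries of RefSeq (GRCm38.p6) were found for 6 of 9 members, and 8 windows of 250 bases before a start were searched. For Prx (chr7:27499074-27499323, + strand) and Dag1 (chr9:108263959-108264208, - strand) the window ends directly before the first base of the gene in GENCODE vM21. Capitals mark matches to the letters searched.
Prx: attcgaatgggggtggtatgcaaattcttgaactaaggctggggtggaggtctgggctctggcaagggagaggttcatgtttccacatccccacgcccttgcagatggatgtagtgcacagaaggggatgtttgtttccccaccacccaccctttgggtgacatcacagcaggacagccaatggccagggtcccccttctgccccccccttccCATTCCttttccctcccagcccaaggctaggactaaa
Dag1: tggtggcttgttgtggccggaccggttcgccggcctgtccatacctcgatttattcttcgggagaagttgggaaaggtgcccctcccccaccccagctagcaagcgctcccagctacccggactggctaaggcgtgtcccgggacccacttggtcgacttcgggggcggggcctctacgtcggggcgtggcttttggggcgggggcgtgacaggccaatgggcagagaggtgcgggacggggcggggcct
The letters searched, on both strands, were ACAAAG for SOX factors, GTGGGCG for EGR factors and GGAATG for TEAD factors, and no matches overlapped. Of the 32851 windows of the same length in the table, 16.5%, 7.02% and 12.6% held them. Prx held the TEAD letters once, as their reverse complement beginning 37 bases before the start. Sgcd held them once, 133 bases before a start that lies inside the gene. The Dag1 window shown held none, and neither did the other Dag1 window searched. The SOX and EGR letters were in 0 of the 8 windows, which says only that these letters are not there.

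Per length of exon, periaxin was the most abundant transcript of the group in all but the cycling cells. Prx (ENSMUSG00000053198, GRCm38 chr7:27499324-27520214, + strand) stood at 144 and 141 CPM in the cycling sums of plates 1 and 2 and at 300 and 404 CPM in the immature sums. It reached 1459 and 1660 CPM in intermediate and 2431 and 2776 CPM in myelinating sums. The 4 states did not overlap between plates. From immature to intermediate cells Prx rose by 2.28 ± 0.17 (log2 ± SE, adjusted p = 0.000411), and from intermediate to myelinating cells by 0.99 ± 0.16 (adjusted p = 0.0333), the latter short of the threshold with a minimum of 2500 genes per well (adjusted p = 0.0627) and with the Pmp22 border at 50000 CPM (adjusted p = 0.0811). In cycling cells it was lower than in immature cells by -1.20 ± 0.16 (adjusted p = 0.00934), where the median gene of all tested stood at -0.13. Exons of Prx share 300 bases with the antisense gene Gm15541, which held 0 reads in the table.

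Every myelinating well had periaxin transcripts. The lowest, median and highest myelinating well held 877, 2324 and 4556 CPM in plate 1 and 1021, 2634 and 5618 CPM in plate 2. In immature wells the median was 155 and 210 CPM and the lowest well was at 0, so the transcript was already common in wells below the Ncmap border. Wells with 5 reads or more made up 72.2% ± 3.38 of immature wells (SD, n = 2 plates), 98.6% ± 0.115 of intermediate and 100% of myelinating wells.

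Drp2, the dystrophin relative that binds periaxin, was found almost only in intermediate and myelinating cells. Drp2 (ENSMUSG00000000223, chrX:134404551-134456573, + strand) had 0 reads in both cycling sums and 0 and 1 read in the immature sums. In the intermediate sums it had 16.4 and 6.29 CPM, and in the myelinating sums 193 and 181 CPM. No cycling or immature well reached 5 reads (0 of 285, a count that leaves room for a share of at most 1.05%). Of intermediate wells 6 of 79 and 5 of 70 did, and of myelinating wells 71 of 108 and 84 of 113. One intermediate well supplied 38.2% of the Drp2 reads of that sum in plate 1, and one well 41.6% in plate 2.

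Drp2 was highest in myelinating cells. Against 1 read in the immature sums, the 34808 reads of the myelinating sums gave a ratio of 21345 per read sequenced (95% counting interval 3831 to 843113). The 1029 intermediate reads gave a ratio of 1324 (237 to 52342). No test is given for these 2 differences, since Drp2 entered the fit only through the groups where it is high. From intermediate to myelinating cells the fitted rise was 4.28 ± 0.59 on the log2 scale (adjusted p = 0.0185), which missed the threshold with the Pmp22 border at 50000 CPM (2.66, adjusted p = 0.0516). Within the plates it was 3.75 in plate 1 and 5.00 in plate 2. Intervals here cover counting error only, since reads without molecular identifiers are not independent molecules.

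**Figure D2:**
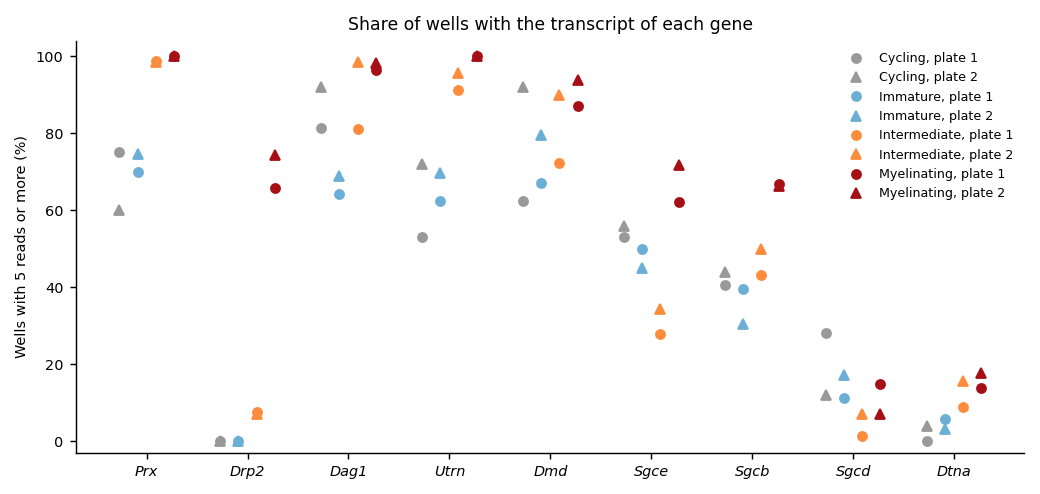
Percent of wells with 5 reads or more (y axis) for each gene (x axis), by state (colour) and plate (circle, plate 1; triangle, plate 2). Drp2 is at 0 in cycling and immature wells, between 7.14 and 7.59% in intermediate wells and at 65.7 and 74.3% in myelinating wells, while Prx and Utrn reach 100%.

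Dag1, which encodes both subunits of dystroglycan, rose between immature and intermediate cells, and by less than Prx. Dag1 (ENSMUSG00000039952, chr9:108204634-108263958, - strand) stood at 162 and 212 CPM in cycling and 162 and 183 CPM in immature sums. It had 308 and 430 CPM in intermediate and 377 and 394 CPM in myelinating sums. The plates of the last 2 states overlap, and both lie above the immature and cycling sums. The rise from immature to intermediate cells was 1.23 ± 0.22 (adjusted p = 0.0281, and 0.0885 with the Pmp22 border at 15000 CPM). The difference from intermediate to myelinating cells was 0.31 ± 0.22 (adjusted p = 0.740), and over both steps the rise was 1.54 ± 0.22 (adjusted p = 0.00437). Dystroglycan transcripts were widespread in every state, in 66.5% ± 3.32 of immature, 86.6% ± 7.60 of cycling and 97.3% ± 1.37 of myelinating wells.

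The 2 large dystrophin family members took different courses. Utrn (ENSMUSG00000019820, chr10:12382188-12869365, - strand), which encodes utrophin, a relative of dystrophin that also links dystroglycan to actin, had 74.1 and 116 CPM in cycling and 191 and 122 CPM in immature sums. It went to 604 and 557 CPM in intermediate and 1551 and 1281 CPM in myelinating sums. The rise was 2.03 ± 0.28 from immature to intermediate cells (adjusted p = 0.00771) and 3.56 ± 0.29 from immature to myelinating cells (adjusted p = 0.000214). From intermediate to myelinating cells it was 1.53 ± 0.27 (adjusted p = 0.0463), which did not pass with the plate as a replicate block (adjusted p = 0.0727). It passed in 7 of 11 alternatives, and the weakest, with the Pmp22 border at 50000 CPM, gave 1.04 (adjusted p = 0.245).

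Dmd did not pass the test in any comparison. Dmd (ENSMUSG00000045103, chrX:82948870-85206141, + strand) had 151 and 253 CPM in cycling, 290 and 331 CPM in immature, 369 and 523 CPM in intermediate and 298 and 340 CPM in myelinating sums. Its change was 0.66 ± 0.27 from immature to intermediate (adjusted p = 0.418) and -0.24 ± 0.27 from intermediate to myelinating cells (adjusted p = 0.922). The immature and myelinating sums overlap. Gene counts do not tell dystrophin isoforms apart, and Schwann cells are known for a short one.

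The balance of reads between utrophin and dystrophin turned over along the states. There were 0.658 and 0.370 Utrn reads per Dmd read in the immature sums, 1.64 and 1.06 in the intermediate and 5.21 and 3.77 in the myelinating sums. The plates of these 3 states did not overlap. The cycling sums, at 0.492 and 0.459, lay within the immature range. These are ratios of reads and not of molecules, since the genes differ in length, but the length is the same in each state.

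Sgce was the 1 sarcoglycan gene that passed a comparison, and that call depended on the settings. It encodes epsilon-sarcoglycan, which takes the place of alpha-sarcoglycan in many tissues outside striated muscle (ENSMUSG00000004631, chr6:4674350-4747207, - strand). It had 94.4 and 169 CPM in cycling, 156 and 143 CPM in immature, 58.1 and 48.9 CPM in intermediate and 143 and 160 CPM in myelinating sums. The intermediate sums lie below all others, and the immature and myelinating sums overlap. From intermediate to myelinating cells Sgce rose by 1.74 ± 0.31 (adjusted p = 0.0475, and 0.0727 with the plate as a replicate block). It passed in 6 of 11 alternatives, and the weakest, with the Pmp22 border at 50000 CPM, gave 1.02 (adjusted p = 0.321). The difference from immature to intermediate cells was -1.34 ± 0.31 (adjusted p = 0.0757). It passed in DESeq2 (adjusted p = 0.00264) and in edgeR without the filter on low counts (adjusted p = 0.00453).

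The same dip was seen in the share of wells. Sgce reached 5 reads in 47.5% ± 3.48 of immature, 31.1% ± 4.55 of intermediate and 66.9% ± 6.82 of myelinating wells. With every well thinned to 100000 reads and counting any read, the shares were 49.3% ± 4.47, 34.8% ± 6.06 and 66.6% ± 4.74. Thinning left out 22 shallower wells. The plate values of these 3 states did not overlap on either measure.

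The other sarcoglycan genes and dystrobrevin passed no comparison. Sgcb (beta-sarcoglycan, ENSMUSG00000029156, chr5:73632749-73647790, - strand) had 136 and 82.8 CPM in immature, 88.7 and 100 CPM in intermediate and 175 and 112 CPM in myelinating sums. The immature sums overlap with both other states, while the intermediate sums lie below the myelinating ones. The share of wells with 5 reads was 35% ± 6.57 in immature and 66.5% ± 0.209 in myelinating wells. Thinned to equal depth it was 36.2% ± 8.95 and 68.9% ± 1.41. Its log2 difference from immature to myelinating cells was 0.78 ± 0.41 (adjusted p = 0.408).

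Sgcd and Dtna were rare. Sgcd (delta-sarcoglycan, ENSMUSG00000020354, chr11:46896253-47988969, - strand) lay between 1.28 and 52.3 CPM in the 8 sums, and in the intermediate sum of plate 1 a single well held all 60 reads. Dtna (ENSMUSG00000024302, chr18:23415135-23659715, + strand), whose product binds the dystrophin family and syntrophins, lay between 0 and 35.8 CPM. At least 5 reads of Dtna were found in 15.8% ± 2.69 of myelinating and 4.47% ± 1.68 of immature wells. Changes of these 2 genes were not detected.

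**Figure D3:**
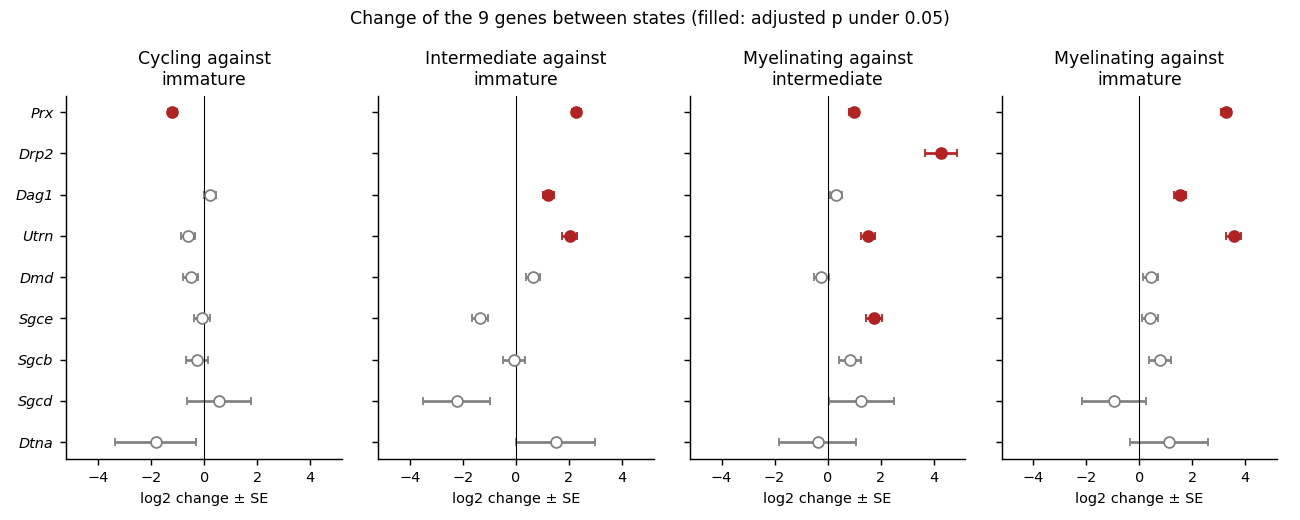
Fitted log2 change (x axis) with its SE for each gene (y axis) in 4 comparisons. Filled points passed an adjusted p of 0.05 in edgeR. Drp2 is left out of the 3 panels against immature cells, where it had 1 read. Prx is filled in all 4 panels, on the lower side only in cycling cells, and Sgce is filled between intermediate and myelinating cells.

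Counted over the group, from immature to intermediate cells 4 of 9 members were called higher (Prx, Drp2, Dag1 and Utrn) and 0 lower, where 0.985% of all tested genes rose and 1.01% fell. From intermediate to myelinating cells 4 rose (Prx, Drp2, Utrn and Sgce) and 0 fell, where 0.36% of genes rose and 0.424% fell. From immature to myelinating cells 4 were called higher (Prx, Drp2, Dag1 and Utrn) and 0 lower, where 2.6% of genes rose and 2.54% fell. From immature to intermediate and from immature to myelinating cells the call of Drp2 is no support, since its filter was passed through its high groups. In each of these comparisons 3 calls are left without it. From immature to cycling cells 0 rose and 1, Prx, fell, where 1.29% of genes rose and 1.29% fell. The median change of the members, called or not, was 1.23, 0.99, 1.12 and -0.51 on the log2 scale in these comparisons, and that of all genes -0.03, 0.00, -0.04 and -0.13.

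The signed change of the first step was taken from that of the second, and this difference was tested. It also grows where a gene turns direction, so it does not measure how far a gene moved. In edgeR 0 of 9 members passed, where 0.0432% of genes passed with a positive difference and 0.0935% with a negative one. At an unadjusted p under 0.05 there were 4, Drp2 among them, where 1013 of all 13904 genes were under it. DESeq2 called 3 (Drp2, Prx and Sgce), and 418 of all 13904 genes. The Drp2 call is no support, since its first step starts from 1 read in the immature sums. Within the plates the Drp2 value was -1.33 in plate 1 and 1.31 in plate 2. Sgce stood at 3.09 ± 0.57 (adjusted p = 0.119) and Prx at -1.30 ± 0.27 (adjusted p = 0.182). The steps of Sgce were -1.34 and 1.74, in opposite directions, while those of Prx were 2.28 and 0.99, both upward.

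Levels of different genes can be compared only per length, as reads per kilobase of exon scaled to CPM. In myelinating cells Prx came first at 467 ± 43.8 (SD, n = 2), place 88 of 25664 genes, and Utrn followed at 82.8 ± 11.1. Dag1 had 60.6 ± 1.91, Sgcb 35.5 ± 11.1 and Drp2 21.9 ± 0.993. The plates of these neighbours do not overlap. Below them Sgce at 14.3 ± 1.09 and Dmd at 13.4 ± 1.25 overlap, as do Dtna at 1.04 ± 0.00547 and Sgcd at 0.972 ± 0.690. The length is that of all annotated exons of a gene together. Where a gene is read mainly as a short isoform, as may hold for Dmd, its level per length is too low. Sgcb and Sgce had 144 and 151 CPM in myelinating cells, so their order per length rests on lengths of 4052 and 10612 bases.

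In immature cells the order was another. Prx was still first at 63.2 ± 13.1 (place 1166), followed by Dag1 at 27.2 ± 2.31 and Sgcb at 27.0 ± 9.30, which overlap. Sgce at 14.1 ± 0.903 and Dmd at 13 ± 1.21 overlap as well and came above Utrn at 9.16 ± 2.83. Drp2 was last at 0.000975 ± 0.00138. In cycling cells Dag1 at 29.4 ± 5.65 and Prx at 25.6 ± 0.382 overlap in their order across plates. Sgcb, at 28.7 in plate 1 and 13.3 in plate 2, lay above both in plate 1 only.

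**Figure D4:**
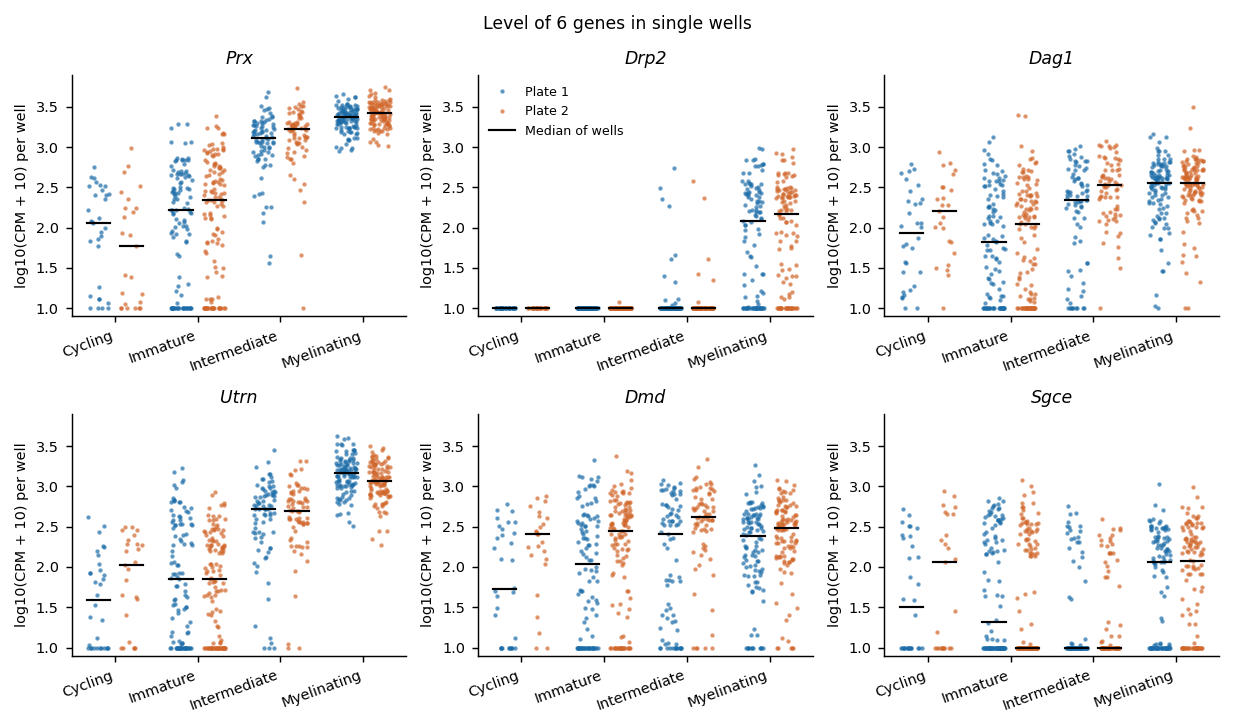
log10(CPM + 10) per well (y axis) of 6 genes in the 4 states (x axis). Each point is a well, coloured by plate, and lines are medians of wells. Prx and Utrn are above the floor in every myelinating well, Drp2 leaves the floor in part of them, and Dmd and Sgce have wells at the floor and well above it in every state.

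Within wells, more members were found together in intermediate and myelinating cells than in immature and cycling cells. At 100000 reads per well the mean number of members with a read was 4.0 ± 0.0452 in immature, 4.36 ± 0.321 in cycling, 4.83 ± 0.286 in intermediate and 6.20 ± 0.0943 in myelinating wells (SD, n = 2 plates). Transcripts of Prx, Drp2 and Dag1, the periaxin complex, were found together in 0% of cycling and immature, 7.79% ± 0.769 of intermediate and 68.4% ± 4.66 of myelinating wells. Drp2 alone had a read in 0% of cycling and immature, 9.21% ± 0.726 of intermediate and 69.7% ± 5.24 of myelinating wells. Its detection thus largely set the shares of the trio. Prx, Dag1 and Utrn were found together in 42.7% ± 8.55 of immature, 88.8% ± 7.69 of intermediate and 97.7% ± 0.543 of myelinating wells. The share with the first trio differed most between intermediate and myelinating wells, and that with the second between immature and intermediate wells.

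**Figure D5:**
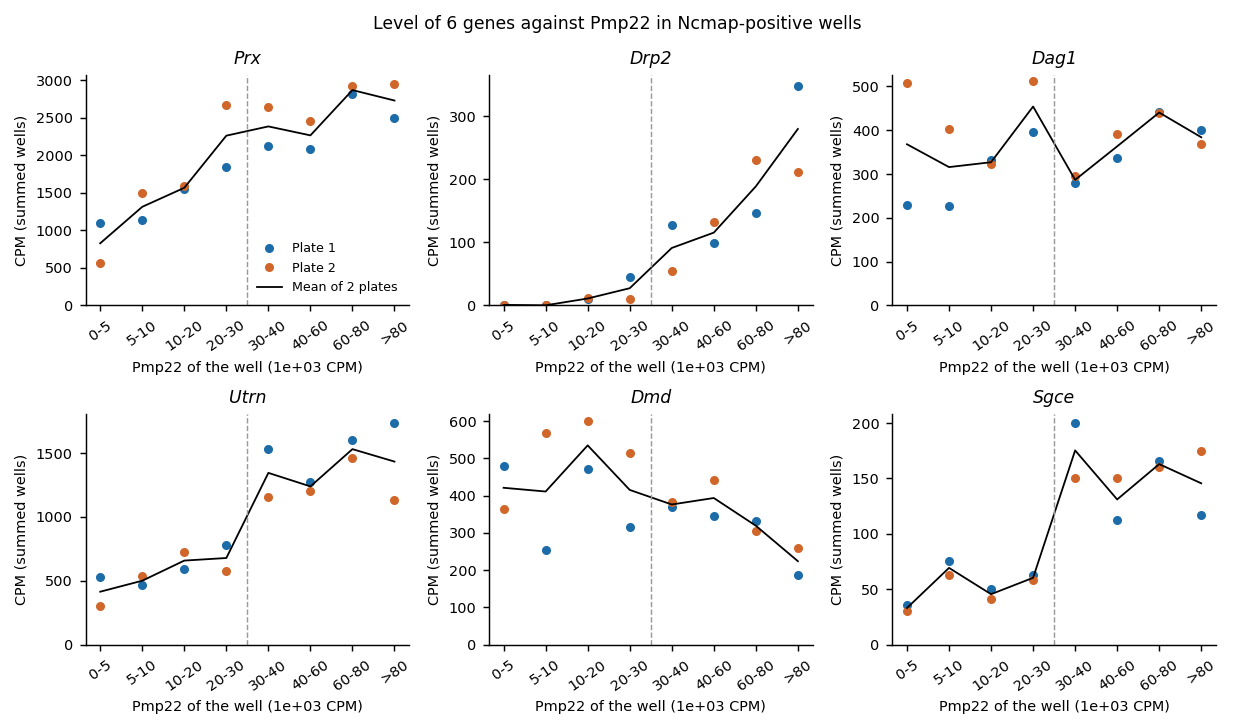
Summed CPM of 6 genes (y axis) in wells with at least 10 CPM of Ncmap, by the Pmp22 level of the well (x axis, CPM in multiples of 1e+03). Points are plates, the line is their mean, and the dashed line is the border at 30000 CPM between intermediate and myelinating wells. Utrn and Sgce are higher in both plates directly above the border than directly below it, Drp2 reaches 280 CPM at the highest Pmp22, and Dmd is lowest at the highest Pmp22.

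Finer steps of Pmp22 showed where each gene moved. In Ncmap-positive wells under 5000 CPM of Pmp22, Prx already stood at 828 ± 378 CPM (SD, n = 2 plates), and it went to 1568 ± 26.0 CPM between 10000 and 20000 CPM of Pmp22. Directly below the border, between 20000 and 30000 CPM, it had 2263 ± 584 CPM, and directly above, up to 40000 CPM, 2386 ± 363 CPM. Prx thus differed by less across the border than between plates.

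Utrn and Sgce differed across that border. Utrn had 777 and 579 CPM in plates 1 and 2 directly below and 1535 and 1154 CPM directly above it. Sgce had 62.6 and 58.1 CPM below and 200 and 151 CPM above. The sums below hold 20 and 18 wells and those above 21 and 14.

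Drp2 was higher in both plates above the border than below it. It had 10.9 ± 1.81 CPM between 10000 and 20000 CPM, 44.9 and 9.37 CPM in plates 1 and 2 directly below the border, 90.9 ± 51.6 CPM directly above the border and 280 ± 97.3 CPM in wells with over 80000 CPM. Dag1 went the other way at the border, with 395 and 513 CPM directly below and 279 and 295 CPM directly above it. Dmd had 535 ± 90.8 CPM between 10000 and 20000 CPM of Pmp22 and 224 ± 51.4 CPM in the wells over 80000 CPM, where the plates of both bins do not overlap. These bins were not tested.

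Over single wells, the genes most like Prx, Drp2 and Dag1 were found by Pearson's r of log2(CPM + 10) over 655 wells and 3493 genes with at least 50 CPM. Most like Prx were Ncmap (r = 0.763), Emid1 (0.752) and Pmp22 (0.742), and for Dag1 they were Ncmap (0.435), Emid1 (0.434) and Fxyd6 (0.432). For Drp2 they were Ecscr (0.669), Kcnk1 (0.634) and Sncg (0.624). Ecscr is known from endothelial cells, and of the 5 endothelial markers Pecam1, Cdh5 and Tie1 were at 0 in all 8 sums. Kdr had 16.5 and 17.9 CPM in the myelinating sums and at most 0.0480 CPM elsewhere, and Cldn5 had 43.4 CPM in 1 intermediate sum and at most 0.0203 CPM elsewhere. Their part in the likeness was not tested. Ecscr had 93.2 and 106 CPM in intermediate and 432 and 498 CPM in myelinating sums. These wells span all states and share depth and plates, and Ncmap and Pmp22 defined the states.

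Among the members Prx and Utrn were most alike over all wells (r = 0.609), followed by Drp2 and Utrn (0.505) and Prx and Drp2 (0.451). Within the myelinating wells of 1 plate the likeness was weaker. Prx and Utrn had r = 0.295 over 108 wells and 0.270 over 113 wells. Over the same wells Drp2 and Utrn had r = 0.0978 and 0.223, and Prx and Drp2 had r = 0.136 and 0.188. Drp2 and Pmp22 had r = 0.405 and 0.418 there, and with the logarithm of the reads per well Drp2 had r = 0.175 and 0.0876. Weak values in such sparse counts are given as a description.

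The other genes of the pathway were counted in the same fit. Of 45 genes in 5 lists 40 were tested, and from immature to myelinating cells 2 rose and 3 fell, where 2.6% and 2.54% of all genes did. From immature to intermediate cells 1 rose and 1 fell, where 0.985% and 1.01% of all genes did. From intermediate to myelinating cells 0 rose and 1 fell, where 0.36% and 0.424% of all genes did. From immature to cycling cells 0 rose and 1 fell, where 1.29% and 1.29% of all genes did. For the difference between the steps 0 passed in edgeR and 4 had an unadjusted p under 0.05, where 1013 of all 13904 genes did. Their median change from immature to myelinating cells was 0.02 on the log2 scale, against -0.04 for all genes.

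Of the other subunits of the complex, 6 of 10 were tested and none passed in the 5 comparisons of edgeR. An unadjusted p under 0.05 was found for 1 from immature to intermediate cells and 1 for the difference between the steps. Of all 13904 genes 1523 and 1013 had one. Sgcz, a sarcoglycan gene best known from muscle and brain, had 0 reads in all 8 sums. Sgca, the alpha-sarcoglycan of striated muscle, had 29 reads, all in immature cells of plate 1.

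Of 18 genes that build the laminin-binding sugar chain of dystroglycan, all were tested. Pomgnt1, a glycosyltransferase of this pathway, rose by 1.70 ± 0.33 from immature to intermediate cells (adjusted p = 0.0351) and by 2.37 ± 0.33 to myelinating cells (adjusted p = 0.00385). Its sums went from 43.8 and 27.9 CPM over 120 and 91.1 CPM to 156 and 127 CPM.

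Among 8 genes of dystroglycan's ligands Lama4, a laminin alpha chain, fell by 1.34 ± 0.22 from immature to intermediate cells (adjusted p = 0.0171) and by 0.95 ± 0.22 to myelinating cells (adjusted p = 0.0378). Lama2, the alpha chain of the main Schwann cell laminin, had 432 and 556 CPM in immature and 301 and 378 CPM in myelinating sums and passed no comparison. After TMM scaling its fitted change between these states was -0.16 ± 0.21 (adjusted p = 0.846). Of 6 other laminin receptor genes 5 were tested and none passed in the 5 comparisons of edgeR. At an unadjusted p under 0.05 there was 1 each from immature to myelinating (Bcam), from intermediate to myelinating (Itga6) and from immature to cycling cells (Bcam). Of all 13904 genes 2267, 1301 and 2142 were under it in these comparisons.

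Of 3 relatives and linkers of periaxin, Ahnak2, which like periaxin carries a PDZ domain, fell by 2.6 ± 0.33 from immature to myelinating cells (adjusted p = 0.00214) and by 2.83 ± 0.33 from intermediate to myelinating cells (adjusted p = 0.00671). It was also lower in cycling than in immature cells, by -1.5 ± 0.32 (adjusted p = 0.0466). Its sums were 274 and 169 CPM in immature, 214 and 262 CPM in intermediate and 33.5 and 22.7 CPM in myelinating cells. Plec, which encodes the linker protein plectin, rose by 1.17 ± 0.24 from immature to myelinating cells (adjusted p = 0.0261), and its sums went from 168 and 134 CPM to 278 and 243 CPM.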

How the data were processed

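Raw read counts per gene and well were deposited as 1 table of 768 wells. The authors' processing notes in the labels name STAR 2.6.1c, featureCounts and GRCm38.p5, while the methods of the study print a human build for mouse identifiers. Of 25700 identifiers 25664 matched GENCODE vM21 (GRCm38), whose symbols, coordinates and exon lengths are used, and the other 36 held 0.0821% of reads. Smart-Seq2 does not mark the strand. No doublet caller was run, and leaving out wells above the 95th percentile of detected genes was an alternative.

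Members, gene lists and state rules were chosen with earlier results of these data known. Reads were summed per plate and state (8 sums) and fitted with edgeR 4.0.16 in R 4.3.3 (quasi-likelihood, TMM, filterByExpr, Benjamini-Hochberg threshold 0.05, 4 residual degrees of freedom). 1 estimate of spread was shared by all states. The fit was tried on simulated data with large changes planted in the myelinating sums, read only from immature to myelinating cells. Changes as small as those of Dag1, or of Prx, Utrn and Sgce from intermediate to myelinating cells, were not simulated. DESeq2 1.42.0 was an alternative. Within-plate log2 ratios had 0.5 CPM added. All members are named. Of the other lists, up to 4 genes per comparison that passed were named, with at least 20 CPM on average and the same direction in both plates. For likeness the 3 genes with the highest r were named. Each plate's 4 sums share one pool of pups, and the plates therefore pair the sums. Their deviations correlated over 1990 genes with r from -0.0106 to 0.124. Depths are given in the report, and intervals are exact at 95%. Sequences and matches were read with Python 3.11.15 from RefSeq's promoter table. Results of some list genes that are withheld for evaluation are not reported here, although the counts over the lists include them.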

Additional observations from a re-analysis of the deposited data

Results flagged for a closer look

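Wells that no comparison used also held reads of the members, above the limit of 3 reads that a count of 0 allows. The 109 wells under 1500 detected genes held 7310447 reads in all. Among these were 20674 reads of Prx (2828 CPM), 12066 of Utrn (1651 CPM), 2054 of Dag1 (281 CPM) and 1684 of Drp2 (230 CPM). They also held 495 reads of Sgce, 199 of Sgcb and 63 of Dmd (8.62 CPM). At least 5 reads of Prx were found in 18 of these wells and of Drp2 in 6. The 4 corner wells with 1500 genes or more held 21 reads of Dag1, 5 of Dmd, 1 of Prx and 0 of Drp2 and Utrn.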

How the results depend on the processing

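From immature to myelinating and from immature to cycling cells the same members passed under all 11 alternatives with a test. From immature to intermediate cells Prx and Utrn passed in all 11 and Dag1 in 10. Drp2 also passed in all 11 from immature to intermediate and to myelinating cells. Its passes there are no support, since its filter was passed through its high groups. From intermediate to myelinating cells the count of 4 fell to 2 with library sizes that leave out genes over 1% of reads (Drp2 and Prx), to 2 with the plate as a replicate block (Drp2 and Prx), to 2 with a minimum of 2500 genes (Drp2 and Utrn), and to 0 with the Pmp22 border at 50000 CPM. It was 3 with that border at 15000 CPM (without Sgce) and with the Ncmap border at 50 CPM (without Utrn). For the difference between steps the count rose from 0 to 3 in DESeq2 and without a filter on low counts, and to 2 with the Pmp22 border at 50000 CPM. Drp2 is in each of these counts, and its call is no support. The block changed no other call of a member. Signs turned only for values that passed nowhere. From immature to cycling cells Sgce became 0.0052 (DESeq2), 0.0054 (its size factors) and 0.17 (thinned), Sgcb 0.12 and Dtna 0.50 (thinned), and Drp2 0.52 (DESeq2). From immature to intermediate cells Sgcb became 0.0080 (block), 0.058 (2500 genes), 0.048 (Pmp22 border 50000 CPM) and 0.039 (Ncmap border 50 CPM). The cause was not tested. Leaving out genes over 1% of reads moved the median of all genes from immature to myelinating cells from -0.04 to -0.19. Over all genes, calls in the order of the first step, second step, both steps, cycling and difference were 278, 109, 715, 359 and 19. DESeq2 gave 936, 647, 1513, 1357 and 418, and no filter 692, 435, 1197, 848 and 238. Thinning gave 476, 210, 540 and 76 for the first step, second step, cycling and difference. The first step had 162 with the Pmp22 border at 15000 CPM, and the difference 52 at 50000 CPM. With 1 plate left out no residual degrees of freedom remain, and the 13 changes of members that passed had the same direction within each plate. Leaving out a plate moved 9 values of Drp2 and Dtna by more than the SD between plates, all but 1 of them of Drp2.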
